A study of Mus musculus with 12 samples.

Results

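The 34 genes described here encode the vacuolar proton pump (V-ATPase) and the lysosomal machinery that recruits and controls the kinase complex mTORC1. They were picked by mouse gene symbol, by a rule that uses no measured value, though the list was drawn up with earlier results of these data known. They comprised 8 subunits of the V1 sector, 9 V0 subunits and accessory proteins, 5 Ragulator subunits, 3 genes for Rag GTPases and an arginine sensor, 3 mTORC1 subunits and 6 genes for Rheb, the TSC complex and GATOR1. All 34 had a row among the 32688 genes of the count table, and all 34 were among the 18066 genes that passed the filter on low counts and were tested. The RNA-seq libraries came from RAW264.7, a macrophage line of mouse origin, grown in high-glucose DMEM with serum. The cells were of genotype Null or carried CRISPR knockouts of both TFEB and TFE3 (CRISPR TFEB/TFE3 DKO, DKO below), and each genotype was kept as control or exposed to 100 µM etoposide for 8 h, giving 4 groups of 3 libraries. Etoposide traps topoisomerase II on DNA and thereby produces DNA breaks. Controls were untreated according to the labels, whereas the methods of the study name DMSO. Null and DKO were each a single line, so the DKO comparison cannot tell the deletions from other differences between the lines, and the study calls the etoposide samples independent while the labels do not say that the 3 libraries of a group came from separate cultures. Without that, the p-values measure the spread between these libraries.

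The V-ATPase couples ATP hydrolysis in its cytosolic V1 sector to proton transport through its membrane V0 sector, and thereby acidifies lysosomes, endosomes and, in macrophages, phagosomes. The pump also belongs to the amino acid signal at the lysosome. Together with Ragulator and SLC38A9 it sets the nucleotide state of the Rag GTPases, which bring mTORC1 to the lysosomal surface, where Rheb activates it. GATOR1 switches off RagA and RagB, the TSC complex switches off Rheb, and active mTORC1 phosphorylates TFEB and TFE3 and holds them in the cytosol. TFEB and TFE3 bind sites around the letters CACGTG in promoters of lysosomal genes, among which V-ATPase genes are well known.

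Promoter sequences of the members were therefore searched for CACGTG, a motif that is its own reverse complement, so that both strands read alike. RefSeq windows from 250 bases before to 50 after an annotated start (GRCm38.p6) were at hand for 28 of the 34 members, and 8 of the 28 (28.6%) held the motif: Atp6v0b, Atp6v0d1, Atp6v0e, Atp6v1a, Lamtor1, Lamtor4, Rheb and Rragb. Over all 32851 windows of that length the share was 7.15%, and over the 27025 genes with such a window it was 8.09%. The windows of the same 8 members also held TCACGTG on one strand or the other, against 3.77% of all windows and 4.29% of genes, and these matches overlap those of CACGTG. The related letters CATGTG, searched on both strands, were in the windows of 4 of 28 members (14.3%), in 14.2% of all windows and in those of 15.9% of genes. Shown here, 5′ to 3′ along the gene with CACGTG in capitals, are the bases upstream of the start for the 4 members that held the motif entirely before the start and differed between DKO and Null cells in control or etoposide-treated cells, leaving out bases annotated as exon. They lie at chr5:138255282-138255481 on the plus strand (Lamtor4), chr4:117887334-117887529 on the minus strand (Atp6v0b), chr16:44139306-44139459 on the minus strand (Atp6v1a) and chr7:101905637-101905836 on the plus strand (Lamtor1).
Lamtor4: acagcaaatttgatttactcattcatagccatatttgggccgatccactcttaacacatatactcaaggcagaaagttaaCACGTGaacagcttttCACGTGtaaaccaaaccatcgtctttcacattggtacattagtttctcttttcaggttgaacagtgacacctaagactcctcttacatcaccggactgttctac
Atp6v0b: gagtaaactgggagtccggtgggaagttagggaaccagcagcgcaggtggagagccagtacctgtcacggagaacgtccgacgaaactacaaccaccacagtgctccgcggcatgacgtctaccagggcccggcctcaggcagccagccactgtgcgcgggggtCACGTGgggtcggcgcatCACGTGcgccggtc
Atp6v1a: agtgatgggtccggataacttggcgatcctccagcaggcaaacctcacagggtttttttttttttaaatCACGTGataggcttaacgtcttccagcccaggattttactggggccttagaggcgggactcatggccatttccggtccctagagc
Lamtor1: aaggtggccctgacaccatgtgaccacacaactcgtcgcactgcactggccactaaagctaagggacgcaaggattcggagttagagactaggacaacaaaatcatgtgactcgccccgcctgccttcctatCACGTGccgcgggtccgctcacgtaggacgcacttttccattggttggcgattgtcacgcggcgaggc
The motifs began 120 and 104 bases before the start in Lamtor4, 36 and 18 in Atp6v0b, 131 in Atp6v1a and 68 in Lamtor1. Lamtor4 was lower in DKO than in Null cells, while Atp6v0b, Atp6v1a and Lamtor1 were higher in DKO cells in at least 1 condition, as detailed beside each gene. In control cells 1 of the 8 members with the motif was higher and 2 were lower in DKO cells (median log2 difference 0.13), against 1 higher and 2 lower of the 20 without it (median 0.09), where 10.9% of all genes were higher and 8.39% lower. After etoposide 3 were higher and 1 lower of the 8 (median 0.15), and 6 were higher and 1 lower of the 20 (median 0.17), where 15.9% of all genes were higher and 17.8% lower. A match is a description of letters and not evidence of a bound site. Not every window begins from the outermost start of its gene in GENCODE M21. Among the 8, those of Atp6v0e, Atp6v1a and Rheb begin 13165, 446 and 263 bases inside the annotated gene, though within 16, 46 and 67 bases of an annotated transcript start, so the stretch shown for Atp6v1a lies inside its gene. The window of Atp6v0a1, which held no CACGTG, begins 946 bases inside, and none of these 4 windows covers the outermost start.

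Library totals were 29837255 to 49255784 counts for Null control, 50172982 to 58428399 for Null etoposide, 34918422 to 58697226 for DKO control and 54507188 to 61809316 for DKO etoposide. Levels are given as CPM (counts scaled to the library size, here with TMM factors), and differences on the log2 scale from a limma-trend fit to all 12 libraries. Adjusted p-values are limma-trend values with Benjamini-Hochberg adjustment over the 18066 genes, and a gene is said to rise, fall or differ at an adjusted p under 0.05. Of the targeted genes, Tfe3 stood at 119, 105 and 89.4 CPM in Null control, 103, 99.1 and 102 in Null etoposide, 31.5, 39.4 and 42.5 in DKO control and 38.6, 34.2 and 40.4 with etoposide in DKO, lower in every DKO library. Tfeb stood at 17.2, 16.6 and 16.8, 7.62, 7.10 and 7.95, 3.14, 4.83 and 5.25 and 4.27, 4.30 and 4.44 CPM in the same order, also lower in every DKO library, and both transcripts remained detectable. The titles of the DKO etoposide libraries name both RAW264.7 and MEFs and leave out DKO, whereas their genotype field gives the DKO and their source field RAW264.7. The summed level of 8 macrophage markers was 4193 to 5132 CPM over the 12 libraries and that of 8 fibroblast markers at most 2.04 CPM, and in the DKO etoposide libraries Col1a1, Col1a2 and Pdgfra reached at most 0.145 CPM. Pdgfrb, also a fibroblast marker, reached 0.963 CPM there after 0.152 to 0.244 in DKO control (3.54-fold in the DKO response, adjusted p = 1.73e-05), and stood at 1.30 to 1.38 CPM in Null etoposide libraries. Replicates spread more in control than in etoposide-treated cells: the median log2 SD of a member was 0.150 (Null) and 0.155 (DKO) without etoposide and 0.0406 (Null) and 0.0944 (DKO) with it. In both control and etoposide-treated groups the members' deviations from the group mean moved with the GC content of their transcripts (37.6% to 58.6%), with r over the 34 members from -0.52 (Null control library 3) to 0.53 (DKO etoposide library 1). Next in size were DKO control library 2 at 0.51, Null control library 1 at 0.49 and Null etoposide library 1 at -0.42. Over all 17984 tested genes with a GC value, r was smaller and ran from -0.17 (Null control library 3) to 0.16 (DKO etoposide library 1). A fit corrected for GC content and transcript length was therefore added after the data were seen, and the calls that it ends or adds are given with the genes. The correction works on each library's deviation from the mean over all 12 libraries, not from its group mean. It can therefore also take out differences between groups that go with GC content or length. Mitochondrial genes took 19.4% to 21.7% of the counts in Null etoposide, above all libraries of the other groups, which stood at 14.1% to 18.3% over the Null control libraries and reached at most 17.5% in DKO control and 18.1% in DKO etoposide. That share thus moved with the Null response and with DKO against Null after etoposide, and its part in those results was not tested. In bulk RNA, fewer transcripts per cell and fewer cells that express a gene cannot be told apart.

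Etoposide raised more members than it lowered in DKO cells. In Null cells the balance of all members turned with the GC and length correction, and that of the mTORC1 side moved towards falls in both lines. In Null cells 9 of the 34 rose and 3 fell (6 and 7 with that correction), where 20.9% of all genes rose and 18.7% fell, and the median log2 difference was 0.08 over the members and 0.03 over all genes. Over all 18066 genes the balance turned as well, from 3768 rises and 3380 falls to 3097 and 4164 with the correction. In DKO cells 13 of the 34 rose and 2 fell (15 and 4 with the correction), where 20.2% of all genes rose and 19.1% fell, and the medians were 0.20 and 0.03. There all genes gave 3650 rises and 3458 falls, and 3580 and 3534 with the correction. Among the members, the V-ATPase genes made up most of the rises: 6 of the 17 V-ATPase members rose and none fell in Null cells, and 9 rose and none fell in DKO cells, whereas the 17 genes on the mTORC1 side gave 3 rises and 3 falls in Null and 4 rises and 2 falls in DKO cells. With the GC and length correction the V-ATPase genes gave 4 rises in Null and 12 in DKO cells and no fall, and the mTORC1 side 2 rises and 7 falls in Null and 3 rises and 4 falls in DKO cells. No V-ATPase member fell by limma-trend, by edgeR or by DESeq2 in either line, and the number with a negative difference at an unadjusted p under 0.05 was also 0. Called in both lines were 10 members, that is 10 of the 12 called in Null and 10 of the 15 called in DKO cells, and each of the 10 moved the same way in both. Of all genes, 26.8% were called in both lines in 1 direction, that is 67.7% of those called in Null and 68.1% of those called in DKO cells.

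Between the lines, 3 members were higher and 4 lower in DKO than in Null control cells, where 10.9% of all genes were higher and 8.39% lower, with a median log2 difference of 0.10 over the members and -0.00085 over all genes. After etoposide 12 members were higher and 2 lower in DKO cells, where 15.9% of all genes were higher and 17.8% lower, with medians of 0.17 and -0.01. The response to etoposide itself differed between the lines for 1 member, Atp6v0a1, whose response was higher in DKO cells, and for 0 members in the other direction (0 also with edgeR and DESeq2, and 1, Rheb, at an unadjusted p under 0.05 with limma-trend), where 3.07% of all genes had a higher and 6.39% a lower response. Among all called genes, the share that was higher moved with the GC and length correction from 52.7% to 42.7% in the Null response, from 47.2% to 58.9% in DKO against Null after etoposide and from 32.4% to 47.9% in the difference of responses, and with library size alone from 56.6% to 43.4% in DKO against Null control cells. Leaving out 1 library moved the number of members called between the lines in control cells from 7 to 4 (without Null control 2 or DKO control 3) or 12 (without DKO control 1), the number after etoposide from 14 to 9 (without Null etoposide 3 or DKO etoposide 1) and the number in the difference of responses from 1 to 2 (without Null control 1). Over all genes the calls in control cells moved from 3490 to 2727 without Null control 2, 2910 without DKO control 3 and 4721 without DKO control 1. After etoposide they moved from 6079 to 4737 without Null etoposide 3 and 4956 without DKO etoposide 1. Of the 34 members, 11 passed the test in none of the 5 comparisons, among them Mtor, Tsc1 and Rragb. No share over all genes is given for this count. The comparisons that share a group of libraries, such as the Null response and DKO against Null in control cells, are not independent of each other.

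**Figure D1:**
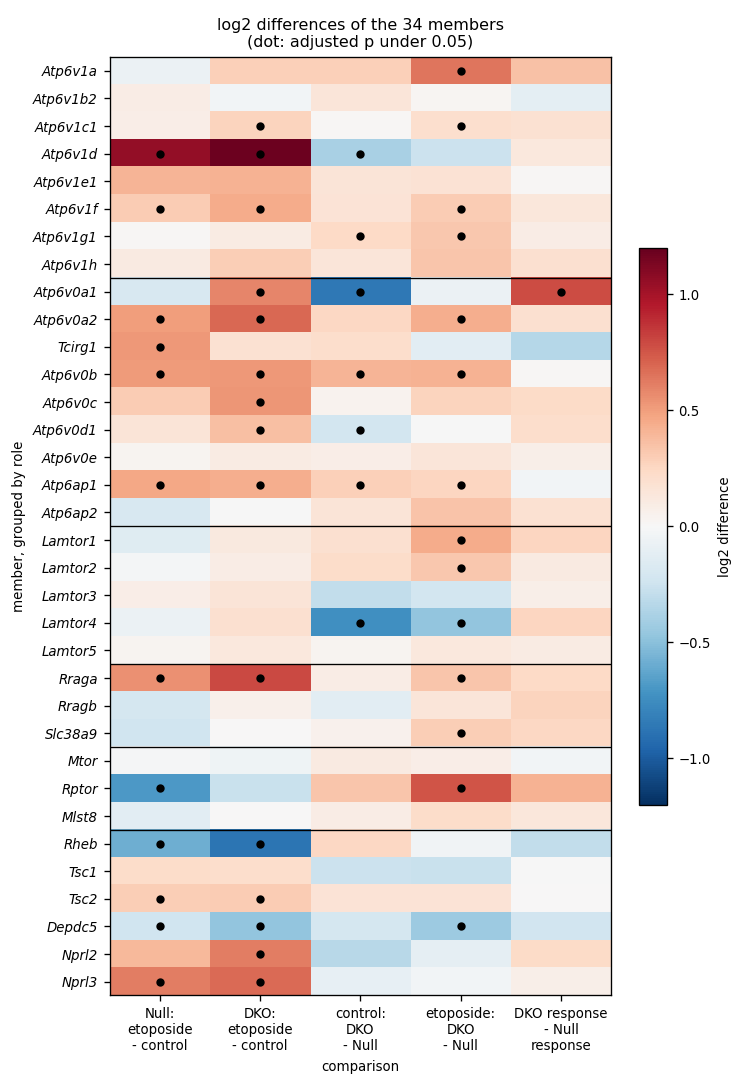
Heat map of the log2 difference of each of the 34 members (rows, grouped by role with black lines between roles) in 5 comparisons (columns), red for higher, blue for lower and white for no difference, with a black dot where the adjusted p was under 0.05. The V-ATPase rows at the top are mostly red in the etoposide columns, Rheb and Rptor are blue in the Null response, and the last column holds a single dot at Atp6v0a1.

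Among the 8 V1 subunits, the cytosolic part of the pump that hydrolyses ATP, 2 rose in Null and 3 in DKO cells after etoposide, where 20.9% and 20.2% of all genes rose. The rise of Atp6v1d, whose product belongs to the central rotor stalk, was the largest of any member in both lines (ENSMUSG00000021114.8, chr12:78840725-78861638, minus strand in GENCODE M21, GRCm38). Atp6v1d stood at 30.1, 37.3 and 40.5 CPM in the Null control libraries and at 76.5, 74.0 and 72.5 CPM in the Null etoposide libraries. DKO levels of Atp6v1d were 29.3, 25.4 and 27.4 CPM in control and 57.9, 69.7 and 59.0 CPM in etoposide libraries. All etoposide libraries exceeded all control libraries in both lines, with log2 differences of 1.06 (SE 0.111, adjusted p = 1.02e-05) in Null and 1.18 (SE 0.111, adjusted p = 3.47e-06) in DKO cells. Both rises were called under all 22 alternatives run. In control cells Atp6v1d was lower in DKO than in Null cells, with a log2 difference of -0.38 (SE 0.111, adjusted p = 0.0277), with no overlap between the groups. That call was lost under 6 of the 22 alternatives, 4 of which left out 1 library (Null control 2 or 3, DKO control 2 or 3) and gave -0.29 to -0.38. The other riser of this sector was Atp6v1f, a further central stalk subunit, at 0.31 (SE 0.0996, adjusted p = 0.0269) in Null and 0.45 (SE 0.0996, adjusted p = 0.00339) in DKO cells, of which the first was 0.18 (adjusted p = 0.135) with GC and length correction, in a range of 0.0134 to 0.135 over the alternatives, and was also lost without Null control 1 (0.22) or any 1 Null etoposide library (0.30 to 0.31). Atp6v1c1, a subunit that bridges V1 and V0, rose in DKO cells by 0.26 (SE 0.0632, adjusted p = 0.00525).

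Atp6v1a encodes the catalytic A subunit, and its level separated the lines after etoposide (ENSMUSG00000052459.13, chr16:44085402-44139705, minus strand). Atp6v1a stood at 147, 149 and 146 CPM in Null etoposide and at 226, 243 and 223 CPM in DKO etoposide libraries. In control cells it stood at 130.0, 156 and 182 CPM in Null and 214, 179 and 175 CPM in DKO libraries. The 2 lines did not overlap after etoposide, where DKO was higher by 0.64 (SE 0.113, adjusted p = 0.000742), and they overlapped in control cells, where the difference was 0.29 (SE 0.113, adjusted p = 0.102). The B subunit gene Atp6v1b2 passed the test in none of the comparisons, with log2 differences of 0.09 in Null and -0.03 in DKO cells after etoposide (95% intervals -0.18 to 0.35 and -0.30 to 0.24). Atp6v1g1, a peripheral stalk subunit, was higher in DKO cells in both conditions (ENSMUSG00000039105.6, chr4:63544772-63550750, plus strand). Atp6v1g1 stood at 46.6, 46.5 and 49.1 CPM in Null control and 53.4, 55.9 and 58.1 CPM in DKO control libraries. After etoposide it stood at 47.2, 48.6 and 47.4 CPM in Null and 59.4, 59.3 and 60.6 CPM in DKO libraries. Every DKO library lay above every Null library, by 0.23 (SE 0.0606, adjusted p = 0.0158) in control cells and 0.32 (SE 0.0606, adjusted p = 0.00124) after etoposide, and the first call was lost under 6 of 22 alternatives, among them library size alone, which gave 0.15, and the fits without Null control 2, DKO control 2 or DKO control 3, which gave 0.21 to 0.22. Atp6v1c1 and Atp6v1f were also higher in DKO cells after etoposide, at 0.20 (SE 0.0632, adjusted p = 0.0298) and 0.30 (SE 0.0996, adjusted p = 0.0329), and each lost that call under 8 of 22 alternatives. Of these, 5 left out 1 etoposide library: Null 2 or 3 or any DKO library for Atp6v1c1 (0.18 to 0.22), and any Null library or DKO 1 or 2 for Atp6v1f (0.27 to 0.31). Atp6v1e1, a second peripheral stalk subunit, and the regulatory subunit Atp6v1h passed the test in none of the 5 comparisons. With GC and length correction Atp6v1h was called in the DKO response (0.50) and in DKO against Null after etoposide (0.46), as under 2 and 3 of the 22 alternatives in all. The DKO response was 0.29 (SE 0.113, adjusted p = 0.0609) for Atp6v1a and 0.10 (SE 0.0606, adjusted p = 0.223) for Atp6v1g1, neither of which passed the test. These were called under 7 and 2 of the 22 alternatives, the GC and length correction (0.38 and 0.17) and library size alone (0.35 and 0.16) among them.

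The 9 V0 and accessory genes encode the membrane sector that carries the protons, and 4 of them rose in Null and 6 in DKO cells after etoposide, beside the same shares of all genes. They include 3 isoforms of the a subunit, which forms the proton path beside the rotating ring: Atp6v0a1, Atp6v0a2 and Tcirg1, the last known as the a3 isoform of osteoclasts and macrophages. Atp6v0a1 was the member whose etoposide response differed between the lines (ENSMUSG00000019302.16, chr11:101009452-101063719, plus strand). Atp6v0a1 stood at 44.4, 40.0 and 36.2 CPM in Null control and 33.3, 37.1 and 34.7 CPM in Null etoposide libraries. DKO levels of Atp6v0a1 were 19.6, 23.7 and 23.3 CPM in control and 34.6, 31.8 and 33.4 CPM in etoposide libraries. The DKO control libraries were the low ones and overlapped no other group, while the Null etoposide and DKO etoposide libraries overlapped. Atp6v0a1 was lower in DKO than in Null control cells, at -0.85 (SE 0.0969, adjusted p = 3.56e-05), and rose in DKO cells by 0.59 (SE 0.0969, adjusted p = 0.000404), while the Null response was -0.19 (SE 0.0969, adjusted p = 0.135). The response in DKO minus that in Null cells was 0.78 (SE 0.137, adjusted p = 0.00283), and it ranged from 0.71 to 0.85 and was called under all 21 alternatives run. After etoposide the difference between the lines was -0.07 (SE 0.0969, adjusted p = 0.608), with a 95% interval of -0.28 to 0.14.

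Atp6v0a2, the a2 isoform, rose in both lines and was higher in DKO cells after etoposide (ENSMUSG00000038023.12, chr5:124628576-124724455, plus strand). Atp6v0a2 stood at 76.1, 72.8 and 65.1 CPM in Null control and 103, 99.3 and 99.6 CPM in Null etoposide libraries. DKO levels of Atp6v0a2 were 76.9, 86.3 and 90.6 CPM in control and 135, 129 and 145 CPM in etoposide libraries. The DKO etoposide libraries were above all others and the control groups below all etoposide libraries. The rises were 0.50 (SE 0.0826, adjusted p = 0.000415) in Null and 0.69 (SE 0.0826, adjusted p = 2.99e-05) in DKO cells, and DKO exceeded Null by 0.44 (SE 0.0826, adjusted p = 0.00133) after etoposide, while the control difference of 0.25 (SE 0.0826, adjusted p = 0.0573) did not pass the test. An antisense neighbor could supply an estimated 6.69% of its counts if strand was ignored in counting. Tcirg1 rose in Null cells by 0.52 (SE 0.127, adjusted p = 0.00567), a call that ended with GC and length correction (0.21, adjusted p = 0.281, in a range of 0.000635 to 0.281 over the alternatives), and its DKO response was 0.18 (SE 0.127, adjusted p = 0.3). The difference between those responses was -0.35 (SE 0.179, adjusted p = 0.313), which did not pass the test.

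Per length of their merged exons, the 3 a isoforms can be set side by side as shares of their summed level. Atp6v0a1 made up 16.1% ± 1.99 (SD, n = 3) in Null control, 10.5% ± 0.371 in Null etoposide, 8.35% ± 1.41 in DKO control and 9.52% ± 0.585 in DKO etoposide libraries. The Null control libraries were the highest of the 12 for this share. Atp6v0a2 made up 27.9% ± 2.62, 29.4% ± 1.07, 31.0% ± 4.83 and 38.0% ± 3.66 in the same order, and the DKO etoposide libraries, at 34.9% to 42.1%, lay above all others except DKO control library 3 at 35.1%. Tcirg1 was the most abundant isoform in every library, with means of 52.5% to 60.7%. These shares are given as a description, without a test. Their size depended on the length used, and Tcirg1 fell below Atp6v0a2 in DKO etoposide cells with the coding length, at 43.7% against 45.0%.

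**Figure D2:**
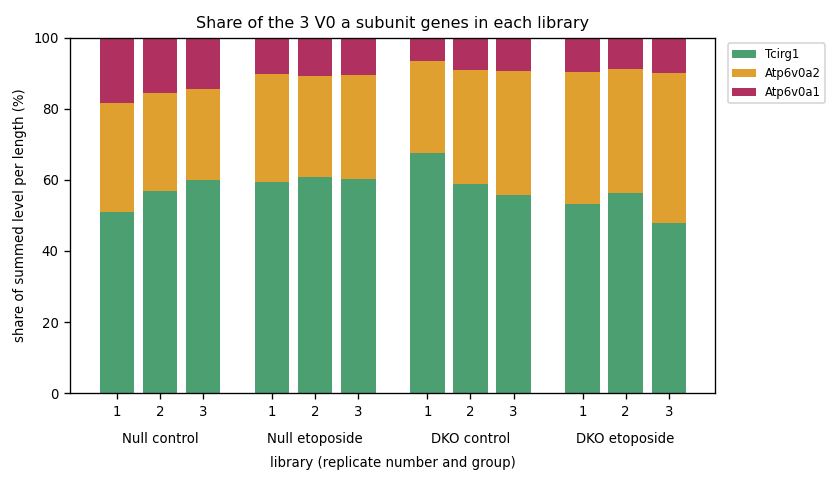
Stacked bars of the share (%) of Tcirg1, Atp6v0a2 and Atp6v0a1 in their summed level per length, 1 bar for each of the 12 libraries by replicate number and group, the axis running from 0 to 100%. The top segment, Atp6v0a1, averages 16.1% in Null control and 8.35% in DKO control, and the middle segment, Atp6v0a2, averages 38.0% in DKO etoposide against 27.9% to 31.0% in the other groups.

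Atp6v0b, a proteolipid of the rotating ring, had the highest level of the 34 members per length of merged exons, with a median of 92.9 CPM per kb over the libraries, and differed in 4 of the 5 comparisons (ENSMUSG00000033379.13, chr4:117884326-117887333, minus strand). Atp6v0b stood at 137, 138 and 127 CPM in Null control and 191, 192 and 190.3 CPM in Null etoposide libraries. DKO levels of Atp6v0b were 161, 192 and 179.6 CPM in control and 259.6, 243 and 262 CPM in etoposide libraries. Within each line the groups did not overlap, and the DKO etoposide libraries were the highest of all. It rose by 0.51 (SE 0.0752, adjusted p = 0.000165) in Null and 0.52 (SE 0.0752, adjusted p = 0.000134) in DKO cells and was higher in DKO than in Null cells by 0.41 (SE 0.0752, adjusted p = 0.0018) in control cells and 0.42 (SE 0.0752, adjusted p = 0.000939) after etoposide. These 4 calls were kept under all 22 alternatives each. An opposite-strand neighbor, Gm12841, could supply an estimated 16.8% of its counts if strand was ignored, and the upstream sequence with its pair of CACGTG motifs is shown above.

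Atp6ap1, an accessory subunit that helps to assemble the V0 sector, followed the same order (ENSMUSG00000019087.13, chrX:74297097-74304721, plus strand). Atp6ap1 stood at 117, 124 and 119 CPM in Null control and 169, 167 and 161 CPM in Null etoposide libraries. DKO levels of Atp6ap1 were 141, 153 and 146 CPM in control and 201, 190.5 and 203 CPM in etoposide libraries. Each DKO group lay above the Null group of the same condition, and each etoposide group above its control. The rises were 0.47 (SE 0.0627, adjusted p = 7.9e-05) in Null and 0.43 (SE 0.0627, adjusted p = 0.000138) in DKO cells, and the DKO to Null differences 0.29 (SE 0.0627, adjusted p = 0.00528) in control cells and 0.26 (SE 0.0627, adjusted p = 0.00719) after etoposide. The control difference missed the threshold in 1 of 22 alternatives, the fit of only the 2 groups compared (adjusted p = 0.0813, in a range of 4.35e-05 to 0.0813 over the alternatives).

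Of the remaining V0 members, the ring subunit Atp6v0c rose in DKO cells by 0.53 (SE 0.145, adjusted p = 0.0113), and its Null response was 0.30 (SE 0.145, adjusted p = 0.118). Atp6v0d1, which joins the ring to the central stalk, rose in DKO cells by 0.36 (SE 0.0688, adjusted p = 0.0011) and was lower in DKO control cells, at -0.22 (SE 0.0688, adjusted p = 0.0425). That last call was lost under 9 of 22 alternatives, 6 of which left out 1 library (Null control 2 or 3, DKO control 1 or 3, Null etoposide 2 or 3) and gave -0.19 to -0.22. The small subunit Atp6v0e and the accessory subunit Atp6ap2, also known as the prorenin receptor, passed the test in no comparison. Atp6ap2 spread widely in control cells, from 50.6 to 84.1 CPM over the Null control libraries.

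**Figure D3:**
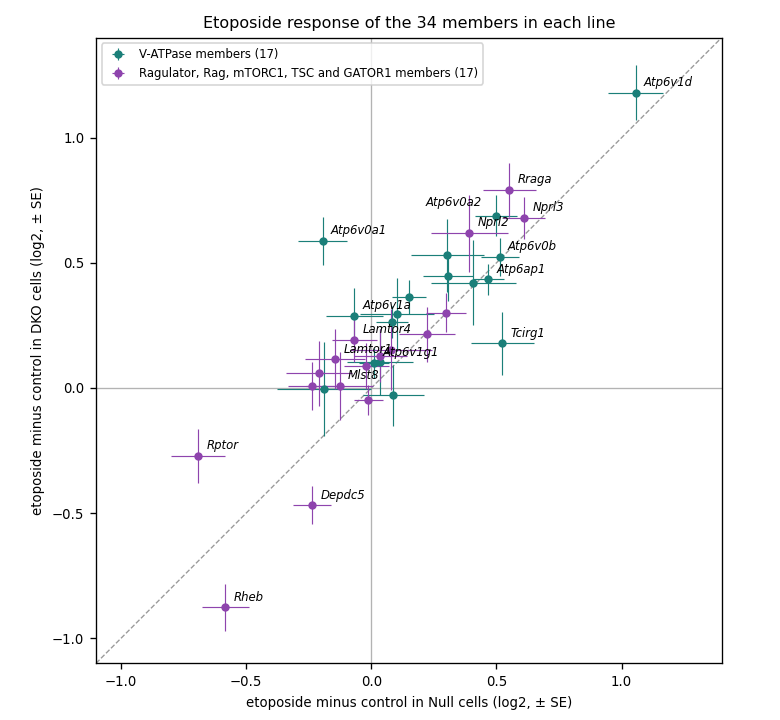
Etoposide response of each of the 34 members in Null cells (x axis) against that in DKO cells (y axis), both as log2 differences with their standard errors, green for the 17 V-ATPase members and purple for the other 17, with a dashed line where the responses are equal. Atp6v1d is the highest in both lines, Rheb and Rptor are the lowest 2 in Null cells, and Atp6v0a1 stands farthest from the line, at -0.19 in Null and 0.59 in DKO cells.

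Ragulator, the scaffold that anchors the Rag GTPases to the lysosome, held 0 members that passed the test for an etoposide response in either line (0 also with edgeR, with DESeq2 and at an unadjusted limma-trend p under 0.05, but 1 with GC and length correction, which called Lamtor4 lower in the Null response at -0.29), with medians over its 5 genes of -0.02 in Null and 0.13 in DKO cells. Of all genes, 20.9% rose and 18.7% fell in Null cells, and 20.2% rose and 19.1% fell in DKO cells. Lamtor4 differed between the lines in both conditions (ENSMUSG00000050552.8, chr5:138255482-138259398, plus strand). Lamtor4 stood at 10.7, 10.8 and 10.9 CPM in Null control and 6.74, 6.05 and 6.65 CPM in DKO control libraries. After etoposide it stood at 9.97, 10.1 and 10.9 CPM in Null and 7.43, 7.92 and 6.91 CPM in DKO libraries. Every DKO library was below every Null library, with log2 differences of -0.74 (SE 0.0902, adjusted p = 6.78e-05) in control cells and -0.47 (SE 0.0902, adjusted p = 0.00136) after etoposide, and both calls were kept under all 22 alternatives. Lamtor4 was the lowest member relative to Null after etoposide, and its upstream window shown above holds a pair of CACGTG motifs.

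Lamtor1 encodes the lipid-anchored subunit that fixes Ragulator to the lysosomal membrane (ENSMUSG00000030842.12, chr7:101905904-101926675, plus strand). Lamtor1 stood at 88.2, 78.2 and 67.8 CPM in Null control and 75.4, 99.3 and 92.6 CPM in DKO control libraries. After etoposide it stood at 67.1, 76.2 and 67.8 CPM in Null and 98.1, 87.4 and 103 CPM in DKO libraries. The lines overlapped in control cells, at 0.19 (SE 0.120, adjusted p = 0.338), and did not overlap after etoposide, where DKO was higher by 0.45 (SE 0.120, adjusted p = 0.0119). Lamtor2 was higher in DKO cells after etoposide by 0.32 (SE 0.0909, adjusted p = 0.0159), a call lost in 3 of 22 alternatives, all of them fits without 1 etoposide library (Null library 3, DKO library 1 or DKO library 3, giving 0.27 to 0.31). Lamtor3 and Lamtor5 passed the test in no comparison, and Lamtor3 stood -0.29 and -0.22 from Null in the DKO control and etoposide groups, with 95% intervals of -0.65 to 0.06 and -0.57 to 0.14.

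Rraga encodes RagA, the GTPase that binds mTORC1 at the lysosome, and it rose in both lines (ENSMUSG00000070934.6, chr4:86575668-86577285, plus strand). Rraga stood at 12.9, 11.7 and 10.9 CPM in Null control and 17.4, 18.2 and 16.5 CPM in Null etoposide libraries. DKO levels of Rraga were 11.4, 12.2 and 14.4 CPM in control and 22.4, 20.1 and 23.2 CPM in etoposide libraries. All etoposide libraries were above all control libraries, and the DKO etoposide libraries were above the Null ones. The rises were 0.55 (SE 0.106, adjusted p = 0.00123) in Null and 0.79 (SE 0.106, adjusted p = 7.66e-05) in DKO cells, and DKO exceeded Null after etoposide by 0.33 (SE 0.106, adjusted p = 0.03), a call lost under 7 of 22 alternatives, 5 of which left out 1 etoposide library (any Null library, DKO 1 or 3) and gave 0.29 to 0.37. Rragb, the paralog encoding RagB, had the third lowest level of the members per length of merged exons, at 3.12 CPM per kb, and passed the test in no comparison. Slc38a9, the lysosomal arginine transporter and sensor, had the lowest level per length of merged exons, at 1.08 CPM per kb, and was higher in DKO cells after etoposide by 0.29 (SE 0.0951, adjusted p = 0.0314), a call lost under 6 of 22 alternatives, 4 of which left out 1 etoposide library (Null 2 or 3, DKO 1 or 3) and gave 0.23 to 0.29. Its Null response was called under 5 of 22 alternatives, GC and length correction (-0.23) among them.

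Of the 3 mTORC1 subunits, Rptor changed while Mtor and Mlst8 passed no test. Rptor encodes raptor, the subunit that recruits substrates and binds the Rag GTPases (ENSMUSG00000025583.15, chr11:119602905-119899576, plus strand). Rptor stood at 80.5, 71.9 and 62.8 CPM in Null control and 43.0, 44.2 and 45.3 CPM in Null etoposide libraries. DKO levels of Rptor were 77.3, 95.8 and 97.8 CPM in control and 76.7, 68.4 and 78.4 CPM in etoposide libraries. The Null etoposide libraries were the lowest of the 12 and overlapped no other group, and the DKO etoposide libraries overlapped the control libraries of both lines. Rptor fell in Null cells by 0.69 (SE 0.108, adjusted p = 0.000277) on the log2 scale, the largest fall of a member there. The DKO response was -0.27 (SE 0.108, adjusted p = 0.0655), and DKO exceeded Null after etoposide by 0.75 (SE 0.108, adjusted p = 0.000167), the largest such difference among the members. The difference between the responses was 0.42 (SE 0.153, adjusted p = 0.126), which did not pass the test. With GC and length correction it was 0.50 (adjusted p = 0.0186, in a range of 0.0186 to 0.227 over 21 alternatives), and the DKO response (-0.47) and the control difference between the lines (0.28) were then also called. Of all 22 alternatives, 4 called that DKO response and 5 that control difference, edgeR and limma-voom among the latter. Mtor, the kinase itself, stood between 93.5 and 106 CPM in all libraries, with etoposide responses of -0.01 in Null and -0.05 in DKO cells (95% intervals -0.14 to 0.12 and -0.18 to 0.08). With GC and length correction these were -0.25 and -0.22 and both were called. Mlst8, which binds the kinase domain, gave -0.13 and 0.01, the former called at -0.37 with the correction. The opposite-strand neighbor Bricd5 could supply an estimated 41.6% of the Mlst8 counts if strand was ignored.

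**Figure D4:**
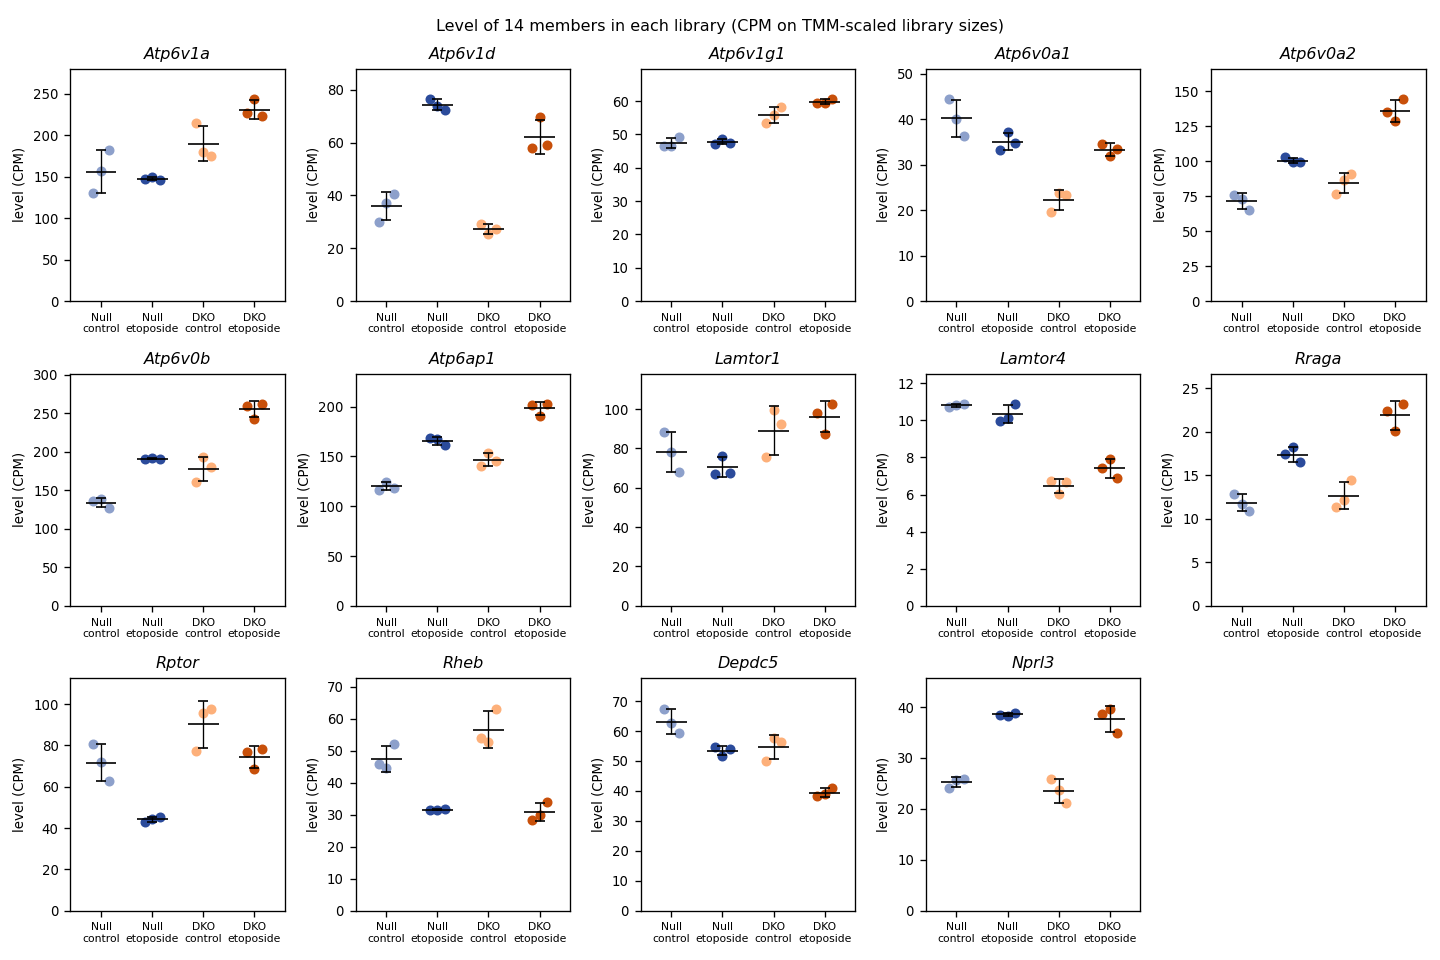
Level of 14 members in each library (y axes, CPM, from 0), with points for the 3 libraries of each group and bars for the mean and SD. Atp6v0a1 is low in DKO control alone, Rptor is low in Null etoposide alone, and Lamtor4 is low in both DKO groups.

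Rheb, the GTPase that activates mTORC1, showed the largest fall of a member in DKO cells (ENSMUSG00000028945.9, chr5:24802823-24842624, minus strand). Rheb stood at 45.8, 44.5 and 52.0 CPM in Null control and 31.5, 31.4 and 31.8 CPM in Null etoposide libraries. DKO levels of Rheb were 53.9, 52.6 and 63.1 CPM in control and 28.5, 29.9 and 33.9 CPM in etoposide libraries. Etoposide libraries were below all control libraries in both lines, with log2 differences of -0.58 (SE 0.0942, adjusted p = 0.000343) in Null and -0.88 (SE 0.0942, adjusted p = 1.14e-05) in DKO cells, both called under all 22 alternatives. The difference between the responses was -0.29 (SE 0.133, adjusted p = 0.234), which did not pass the test. Of the TSC complex, which switches Rheb off, Tsc2 rose by 0.30 (SE 0.0781, adjusted p = 0.00893) in Null and 0.30 (SE 0.0781, adjusted p = 0.00868) in DKO cells. Both calls of Tsc2 ended with GC and length correction, at 0.06 (adjusted p = 0.532) and 0.12 (adjusted p = 0.168), each the highest adjusted p of its alternatives, which went down to 0.00403 and 0.00232. The Null call was also lost without Null etoposide 1 (0.26). The correction added calls for Tsc2 in DKO against Null after etoposide (0.19) and for Rheb in DKO against Null control cells (0.26), as under 2 and 3 of the 22 alternatives in all. Tsc1 passed no test and stood at 0.22 and 0.21 in the respective responses.

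The 3 GATOR1 genes encode 1 complex, the brake on RagA and RagB, and moved in different directions after etoposide. Nprl3 rose in both lines (ENSMUSG00000020289.15, chr11:32225628-32267707, minus strand). Nprl3 stood at 24.1, 25.7 and 25.9 CPM in Null control and 38.4, 38.3 and 38.9 CPM in Null etoposide libraries. DKO levels of Nprl3 were 25.8, 23.8 and 21.1 CPM in control and 38.6, 39.7 and 34.8 CPM in etoposide libraries. Etoposide libraries were above control libraries without overlap, with rises of 0.61 (SE 0.0846, adjusted p = 0.000104) in Null and 0.68 (SE 0.0846, adjusted p = 4.12e-05) in DKO cells. The opposite-strand gene Mpg could supply an estimated 14.0% of the Nprl3 counts if strand was ignored. Nprl2 rose in DKO cells by 0.62 (SE 0.154, adjusted p = 0.00667) and stood at 0.39 (SE 0.154, adjusted p = 0.0615) in Null cells. Depdc5, the subunit that contacts the Rag GTPases, fell (ENSMUSG00000037426.17, chr5:32863701-32994236, plus strand). Depdc5 stood at 67.5, 62.6 and 59.2 CPM in Null control and 54.6, 51.7 and 54.0 CPM in Null etoposide libraries. DKO levels of Depdc5 were 50.1, 57.7 and 56.2 CPM in control and 38.3, 39.0 and 41.0 CPM in etoposide libraries. The DKO etoposide libraries were the lowest of the 12 and overlapped no other group. The falls were -0.24 (SE 0.0758, adjusted p = 0.0257) in Null and -0.47 (SE 0.0758, adjusted p = 0.000343) in DKO cells, and DKO was below Null after etoposide, at -0.44 (SE 0.0758, adjusted p = 0.000673). The Null call was lost under 6 of 22 alternatives, 4 of which left out 1 library (Null control 1 or 2, Null etoposide 2 or 3) and gave -0.19 to -0.24, while the DKO call was kept under all 22. With GC and length correction Depdc5 was also called in DKO against Null control cells (-0.25), as it was with library size alone (-0.29).

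Genes of the same pathway outside the 34 members were read from a list of 61, of which 60 had a row and 53 were tested. In Null cells 11 of the 53 rose and 11 fell after etoposide, where 20.9% of all genes rose and 18.7% fell. In DKO cells 16 rose and 9 fell, where the shares of all genes were 20.2% and 19.1%. In control cells 3 were higher and 10 lower in DKO than in Null cells, beside 10.9% and 8.39% of all genes, and after etoposide 10 were higher and 11 lower, beside 15.9% and 17.8%. Among these 53, the etoposide responses of at least 1 on the log2 scale were in inhibitors and targets of mTORC1. Ddit4, which activates the TSC complex, stood at 1.30, 2.46 and 3.67 CPM in Null control and 24.6, 26.0 and 25.7 CPM in Null etoposide libraries, and rose by 3.45 (SE 0.377, adjusted p = 1.5e-05) there and by 2.30 (SE 0.377, adjusted p = 0.000382) in DKO cells. Sesn2, a leucine sensor that restrains the pathway, rose by 1.77 (SE 0.149, adjusted p = 1.64e-06) in Null and 0.88 (SE 0.149, adjusted p = 0.000487) in DKO cells. Ulk1, the autophagy kinase that mTORC1 phosphorylates, rose by 2.41 (SE 0.128, adjusted p = 3.46e-08) and 1.00 (SE 0.128, adjusted p = 4.88e-05). Eif4ebp1, the translation repressor that mTORC1 inactivates, fell in both lines, at -1.45 (SE 0.0963, adjusted p = 2.13e-07) in Null and -1.52 (SE 0.0963, adjusted p = 9.29e-08) in DKO cells. Tfeb, itself a target of the kinase, fell in Null cells, at -1.15 (SE 0.156, adjusted p = 8.99e-05), and stood at 0.01 (SE 0.156, adjusted p = 0.963) in DKO cells. Sesn3, a further sestrin, rose by 2.88 (SE 0.460, adjusted p = 0.00032) in Null and 1.69 (SE 0.460, adjusted p = 0.0113) in DKO cells on 0 to 38 counts per library. Sesn1 fell in Null cells by 0.62 (SE 0.123, adjusted p = 0.00147) and stood at 0.11 (SE 0.123, adjusted p = 0.521) in DKO cells, and it was lower in DKO control cells at -1.39 (SE 0.123, adjusted p = 3.95e-06).

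Between the lines, Flcn, the folliculin that acts on RagC, was lower in DKO cells in both conditions, at -0.76 (SE 0.0907, adjusted p = 5.6e-05) in control cells and -0.43 (SE 0.0907, adjusted p = 0.00259) after etoposide. Rragc passed no test, with -0.20 and -0.05, and Rragd, on 2 to 23 counts per library, passed none either. After etoposide DKO cells had less Ddit4 and Ulk1 than Null cells, at -1.41 (SE 0.377, adjusted p = 0.0119) and -1.23 (SE 0.128, adjusted p = 1.04e-05). Prr5, a subunit of the sister complex mTORC2, had 0 counts in the 3 DKO control libraries against 4, 20 and 20 in Null control, at least 4.69-fold lower against a floor of 3 counts per library, which covers counting error only. After etoposide it had 1 count in each DKO library and 19, 5 and 18 in the Null libraries. Atp6v0d2, the d subunit isoform known from osteoclasts, was higher in DKO control cells by 1.49 (SE 0.320, adjusted p = 0.00511) on 1 to 16 counts per library. Markers of osteoclasts moved with the genotype: the summed level of 8 such markers was 117 to 167 CPM in Null control, 131 to 136 in Null etoposide, 247 to 307 in DKO control and 591 to 679 in DKO etoposide libraries. Of the 6 that were tested, 4 were higher and 1 lower in DKO control and 4 higher in DKO etoposide cells, most of the sum was Nfatc1, and Ctsk, Oscar and Calcr reached at most 0.357 CPM in any library. In the etoposide response 4 of the 6 rose and 0 fell in each line. The macrophage markers summed to 4832 to 5132 CPM in Null control, 4313 to 4546 in Null etoposide, 4193 to 4346 in DKO control and 4585 to 4775 in DKO etoposide libraries. Single macrophage markers moved more than that sum: of the 8, 1 rose and 4 fell in the Null response, 4 rose and 3 fell in the DKO response, 2 were higher and 4 lower in DKO control cells and 2 were higher and 2 lower in DKO cells after etoposide. Csf1r was 0.437-fold and Itgam 2.01-fold in the Null response, and Fcgr1 was 0.140-fold and Spi1 2.01-fold in DKO against Null cells after etoposide. The part of these in the V-ATPase differences between the lines, Tcirg1 and Atp6v0d2 included, and in the V-ATPase responses to etoposide was not tested.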

How the data were processed

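RNA was isolated from RAW264.7 cells with 1 of 2 kits, which the labels do not assign to libraries, and made into stranded libraries depleted of ribosomal RNA. The study's methods name Cutadapt for trimming where it was required, HISAT2 for alignment and HTSeq to count uniquely mapping read pairs on GENCODE genes. The submitters' processing notes instead list HISAT2, featureCounts and mm10. The deposited table holds unnormalized whole-number counts of each gene in 12 libraries. Annotation release and strand setting are not given in the sources used here, so reads of genes that overlap on opposite strands cannot be told apart. The share of a member's counts that such a neighbor could supply was estimated from the neighbor's counts per base and the length of the overlap. This takes coverage as even along the exons, so the share is not an upper bound.

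Names and positions of genes are those of GENCODE M21 (GRCm38), which held 32501 of the 32688 identifiers. The filter filterByExpr (edgeR 4.0.16) left 18066 genes with 99.96% of the counts, and library sizes were scaled by TMM (factors 0.939 to 1.03). Log2 CPM with a prior count of 3 entered 1 limma-trend model (limma 3.58.1, R 4.3.3) with a mean for each of the 4 groups and robust empirical Bayes moderation, as the methods of the study name limma-trend. P-values are two-sided and adjusted by the Benjamini-Hochberg method over all genes tested, with a threshold of 0.05. The pipeline was tested on simulated data. Replicates of 1 group differed by 3.40 to 53.6 times the variance of counting error, so no 2 libraries of a group were counted as 1 sample. This ratio cannot show whether the libraries came from separate cultures, because it is set against counting error alone.

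The members, the list of 61 other pathway genes and the markers were chosen with earlier results of these data known. A member is given in every library where its response differed between the lines or where it was among the 3 highest or 3 lowest differences called in a comparison. Other pathway genes are named where called with an absolute log2 difference of at least 1, together with Atp6v0d2, Ddit4, Sesn1, Sesn2, Rragc, Rragd, Flcn, Tfeb and Tfe3. Alternatives were edgeR's quasi-likelihood test, DESeq2 1.42.0, limma-voom, DESeq2 size factors, library size alone, no filter, a prior count of 1, a replicate block, a fit of only the 2 groups compared and leaving out each library, plus a GC content and length correction added after seeing the data. One listed gene, Kics2, was not matched to a row.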

Additional observations from a re-analysis of the deposited data

Results flagged for a closer look

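For 1 member and 7 other genes of the pathway, of which the 4 that the rule for named genes covers are given here, the difference between the etoposide responses of the lines passed its own test, limma-trend with Benjamini-Hochberg adjustment over 18066 genes. Atp6v0a1 had a response that was 0.78 higher in DKO than in Null cells on the log2 scale (adjusted p = 0.00283), with all 3 DKO etoposide libraries above all 3 DKO control libraries. Sesn1 had a response that was 0.74 higher in DKO cells (adjusted p = 0.0181), where the Null response was -0.62 and the DKO response 0.11. The response of Sesn2 was lower in DKO cells, at -0.89 (adjusted p = 0.0187), with rises of 1.77 in Null and 0.88 in DKO cells. Ulk1 gave -1.41 (adjusted p = 0.000264), with rises of 2.41 and 1.00. The response of Tfeb, a target of the knockout, was 1.16 higher in DKO cells (adjusted p = 0.00499), with -1.15 in Null and 0.01 in DKO cells. Of the 53 other pathway genes tested, 5 had a higher and 2 a lower response in DKO cells, and of the 34 members 1 had a higher one, where 3.07% of all genes had a higher and 6.39% a lower response.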

How the results depend on the processing

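No direction of a member's call was reversed under any alternative run. Of the calls, 8 of 12 in the Null response, 14 of 15 in the DKO response, 3 of 7 in DKO against Null control cells, 9 of 14 in DKO against Null after etoposide and the call of Atp6v0a1 in the difference of responses were kept under every alternative. The number of members called in DKO against Null control cells fell from 7 to 3 when only the 2 groups were fitted, and ran from 4 to 12 without 1 library (4 without Null control 2 or DKO control 3, 12 without DKO control 1). After etoposide it rose from 14 to 22 when only the 2 groups were fitted, and ran from 9 to 16 without 1 library (9 without Null etoposide 3 or DKO etoposide 1). The calls over all genes moved as well when only the 2 groups were fitted. In control cells they went from 3490 of 18066 to 2031 of 16626, and after etoposide from 6079 of 18066 to 8223 of 17459. Without 1 library the number of members called ran from 10 to 15 in the Null response, from 15 to 21 in the DKO response and from 1 to 2 in the difference of responses, where Atp6v1a was the second member (0.48, without Null control 1). With GC and length correction the difference of responses counted 2, the second being Rptor. That correction also called Mtor, Mlst8, Lamtor4 and Slc38a9 lower in the Null response, and the cause was not tested. Dropping the filter on low counts left 10 calls after etoposide and 5 in control cells.

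Same replicate numbers did not pair the libraries: their deviations correlated above 0.1 in 1 of 18 pairs, from -0.54 to 0.39. With a replicate block the counts were 11 in the Null response, 15 in the DKO response, 6 in control cells, 10 after etoposide and 1 in the difference of responses.

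The shares of the a subunits moved with the length used. With the coding length, Atp6v0a1, Atp6v0a2 and Tcirg1 took 19.2%, 33.5% and 47.3% in Null control, 10.1%, 37.8% and 52.1% in DKO control, 12.7%, 35.8% and 51.4% in Null etoposide and 11.2%, 45.0% and 43.7% in DKO etoposide cells. With the longest transcript, Atp6v0a2 took 24.2% in Null control, the 3 took 11.4%, 25.6% and 62.9% in Null etoposide, and Atp6v0a1 and Atp6v0a2 took 10.5% and 33.6% in DKO etoposide cells. Depth was no limit for the members, all of which passed the filter, but it was for Prr5, Sesn3, Rragd and Atp6v0d2.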
